A study of Mus musculus with 15 samples.

Results

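Splicing and nuclear RNA-processing regulators were followed here as a set of 38 genes, chosen as a list of gene symbols and matched to the count table by symbol, of 30386 genes listed in it. The choice was made with earlier results of these data known. The set holds classical SR proteins, SR-like regulators, the kinases that phosphorylate them, scaffold proteins of nuclear speckles, partners of the U1 small nuclear ribonucleoprotein, DEAD-box helicases and splicing regulators enriched in neurons. All 38 passed the filter on low counts. RNA 3′ ends were counted in mouse brain by QuantSeq, which reads next to the poly(A) tail, in 15 libraries of 3 groups of 5. Het_B12 mice carried 1 mutant copy of the T-box transcription factor gene Tbx1 (Tbx1+/-) and were injected intraperitoneally with vitamin B12 at 20 mg/kg in phosphate-buffered saline. Het_PBS mice had the same genotype and received saline, and WT_PBS mice were wild type and received saline. All mice were injected for 4 weeks, 2 times a week, starting at the age of 4 weeks. No label describes the mutant allele, and the comparisons here hold no wild types that received the vitamin.

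Introns are removed from nuclear transcripts by the spliceosome, whose U1 particle recognises the 5′ splice site and whose U2 particle recognises the branch site. SR proteins carry an RNA-binding domain and a tail rich in arginine and serine; they bind exons, recruit the spliceosome and are switched by phosphorylation of that tail, and many are stored in nuclear speckles. Neurons use an unusually large share of alternative exons, including microexons, under the control of proteins such as Rbfox, Nova, Srrm4 and Ptbp2. Many of these genes also regulate their own RNA through exons or retained introns that keep the transcript in the nucleus or lead to its decay.

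The libraries held 1683258 to 2746122 counts, and the 38 genes together took 9511 to 21711 reads per library. Levels below are counts scaled to library size with TMM factors (CPM). They count 3′ ends, and levels are compared only within a gene. Tbx1 itself had reads in only 3 of the 15 libraries (1 read in Het_B12 4, 3 in Het_PBS 1 and 3 in WT_PBS 4), too few to check the genotypes. Markers of neurons, astrocytes, microglia, oligodendrocytes, endothelium, red blood cells and choroid plexus were all found in the table, and of these and 6 nuclear long non-coding RNAs, 51 genes in all, 2 were at 0 in any library. On the first principal component of all genes, which held 18.0% of the variance, WT_PBS 3 lay at -17.8, next to the Het_B12 libraries at -32.8 to -19.1, while every other library of the Het_PBS and WT_PBS groups lay at 10.2 or above. Among the 38 genes, WT_PBS 3 was the highest of the WT_PBS libraries for 23 and the lowest for 6; over all genes tested it was the highest for 25.4%. Some other values of WT_PBS 3 lay with its own group. Gm42418, a gene that overlaps ribosomal RNA sequence, took 10.7% of its counts, against 3.31% to 6.28% in Het_B12 libraries. Its 6 endothelial markers summed to 81.2 CPM, against 158 to 218 CPM in Het_B12 libraries. Further values lay nearer to Het_B12. Cytosolic ribosomal protein genes took 2.19% of its counts, within the Het_B12 range of 2.08% to 2.26%. Its microglia markers summed to 424 CPM, against 339 to 421 CPM in Het_B12 libraries and 586 to 696 CPM in the other WT_PBS libraries. The data do not settle whether its label is right, so counts and the main values against WT_PBS are given with and without it, and each is to be read with that doubt. A pair of libraries, Het_B12 1 and Het_PBS 5, carries the same number, 210, in the labels.

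Many of the splicing regulators were higher in the brains of B12-treated heterozygotes than in those of saline-treated heterozygotes. The set was chosen with earlier results of these data known, so its contrast with all genes below is only a description. With edgeR's quasi-likelihood test and Benjamini-Hochberg adjustment over all genes, 15 of the 38 were higher in Het_B12, 0 were lower and 23 did not pass at an adjusted p under 0.05; over all 11718 genes tested, 7.26% were called, 3.47% higher and 3.79% lower. The log2 fold change was above 0 for 33 of the 38, against 51.4% of all genes, and the median was 0.31, against 0.01 over all genes. Values ran from -0.44 for Srsf3 to 1.14 for Snrnp70. For 14 members every Het_B12 library lay above every Het_PBS library, as it did for 3.75% of all genes, and for 0 members did every Het_B12 library lie below, as it did for 4.07% of all genes. Together the 38 genes took 0.729% to 0.830% of the counts in Het_B12 libraries, 0.524% to 0.574% in Het_PBS libraries and 0.544% to 0.742% in WT_PBS libraries, where WT_PBS 3 held the highest share and the others reached at most 0.617%. With Het_B12 1 and Het_PBS 5 both left out, 9 members were called, all of them higher, while 1.55% of all genes were called higher and 2.15% lower. In RNA from whole tissue, a changed share of cells of a type and a changed amount of RNA per cell cannot be told apart.

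**Figure D1:**
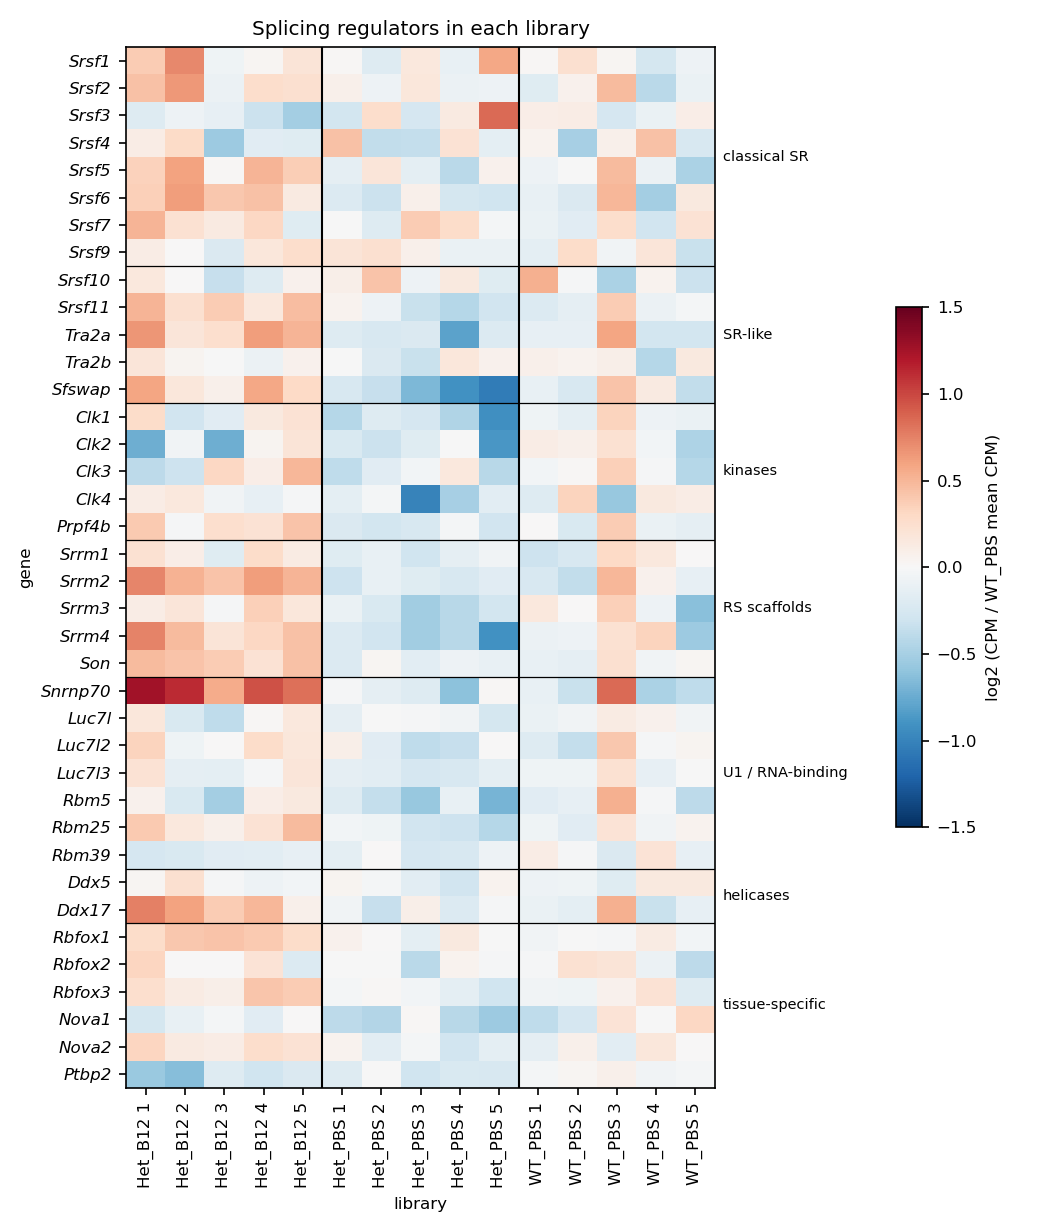
Log2 ratio of each gene's CPM to the WT_PBS mean (colour, blue lower and red higher) for the 38 genes (rows, grouped by role) in the 15 libraries (columns, Het_B12, Het_PBS and WT_PBS from left to right). Red is most frequent in the Het_B12 columns and in WT_PBS 3, and Snrnp70 is the reddest row, at 174 to 286 CPM in Het_B12 libraries.

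**Figure D2:**
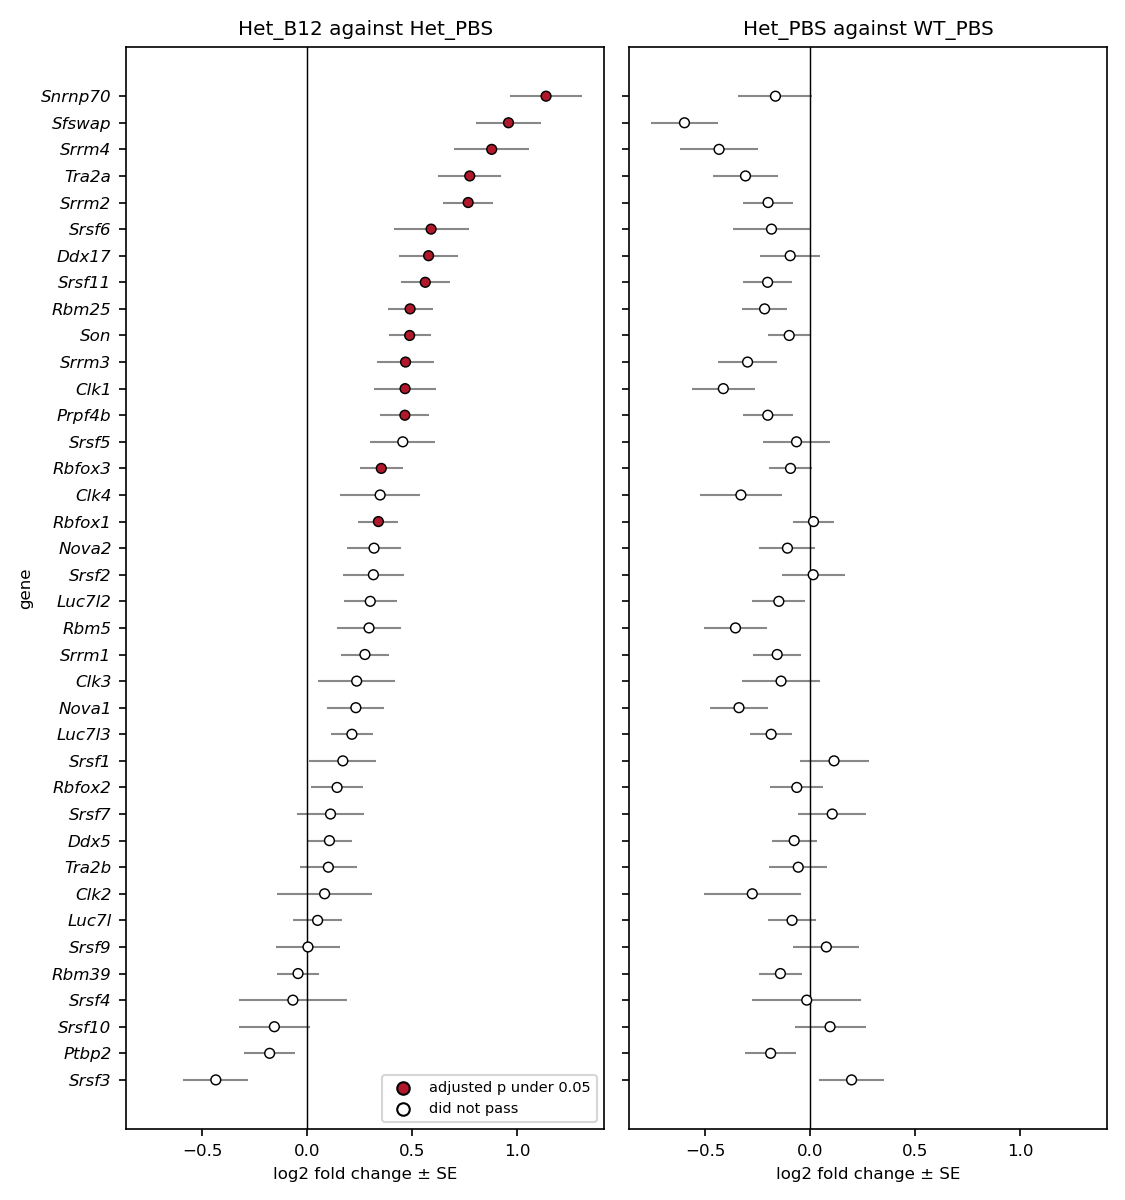
Log2 fold change with its standard error (x axis) for each of the 38 genes (y axis, ordered by the left panel), for Het_B12 against Het_PBS on the left and Het_PBS against WT_PBS on the right; filled points passed at an adjusted p under 0.05. The left panel holds 15 filled points, all above 0, and the right panel holds 0.

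The bases from 250 to 26 before the RefSeq start are shown for 3 of the members with the highest fold changes, Snrnp70, Sfswap and Tra2a. Srrm4, whose fold change lies between those of Sfswap and Tra2a, and Srrm2, just below Tra2a, are not shown. Their windows held no match to the motifs searched. Capitals mark matches, on either strand, to the motifs searched (CCGGAA for ETS factors, GCGCATGC for NRF1, AAGATGG for YY1, CCAAT for NFY, TGACGTCA for CRE-binding factors, GGGCGG for SP factors and CACGTG, the E-box). None of these motifs is contained in another. The sequences are from RefSeq on GRCm38.p6 and are given 5′ to 3′ on the strand of the gene. The windows lie at chr7:45395768-45395992 (minus strand) for Snrnp70, chr5:129500981-129501205 (plus strand) for Sfswap and chr6:49264078-49264302 (minus strand) for Tra2a.
Snrnp70: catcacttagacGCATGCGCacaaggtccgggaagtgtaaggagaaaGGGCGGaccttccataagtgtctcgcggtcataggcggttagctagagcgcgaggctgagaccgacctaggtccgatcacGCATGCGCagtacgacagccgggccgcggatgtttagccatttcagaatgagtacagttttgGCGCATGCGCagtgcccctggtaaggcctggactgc
Sfswap: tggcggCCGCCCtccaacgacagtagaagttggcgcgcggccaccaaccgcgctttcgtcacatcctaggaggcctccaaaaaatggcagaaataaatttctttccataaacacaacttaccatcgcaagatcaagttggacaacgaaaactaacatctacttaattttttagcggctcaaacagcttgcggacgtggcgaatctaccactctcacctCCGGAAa
Tra2a: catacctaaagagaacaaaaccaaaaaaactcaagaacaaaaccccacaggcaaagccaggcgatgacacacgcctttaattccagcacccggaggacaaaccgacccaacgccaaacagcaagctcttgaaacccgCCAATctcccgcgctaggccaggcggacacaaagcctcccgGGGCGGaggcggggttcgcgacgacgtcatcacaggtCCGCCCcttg
The Snrnp70 window holds the NRF1 letters at 3 places, the last of which matches on both strands, and 1 SP match. Of the other windows, that of Sfswap holds 1 SP and 1 ETS match and that of Tra2a holds 1 NFY and 2 SP matches. RefSeq lists 2 starts for Sfswap; the window shown is that of the upstream start, and the window of the other holds the ETS match without the SP match. A promoter was matched for 35 of the 38 members, 8 of them with more than 1 window, and a motif was counted where any window held it. The NRF1 letters stood in 3 of these (8.57%), against 4.06% of the 9119 tested genes with a promoter. Besides Snrnp70 these were Srrm1 and Srsf7, which were not called. ETS letters stood in 10 (28.6%, against 20.05%), NFY letters in 12 (34.3%, against 37.9%), SP letters in 22 (62.9%, against 59.4%), CRE letters in 1 (2.86%, against 2.5%), E-boxes in 1 (2.86%, against 8.73%) and YY1 letters in 0 (against 4.84%). A match describes the letters only.

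Among the partners of U1, Snrnp70 had the highest fold change of the set. Snrnp70 encodes U1-70K, an RNA-binding protein of the U1 particle, and lies on chromosome 7 at 45376453 to 45395742 (GRCm38, minus strand). It had 286, 259, 174, 231 and 210.3 CPM in Het_B12 libraries 1 to 5, against 117, 108, 104, 77.6 and 121 CPM in Het_PBS libraries 1 to 5, and 109.6, 94.3, 213.9, 85.5 and 91.1 CPM in WT_PBS libraries 1 to 5. All Het_B12 libraries lay above all Het_PBS libraries, and in WT_PBS only replicate 3 reached the Het_B12 range. The log2 fold change of Het_B12 was 1.14 ± 0.17 (SE) against Het_PBS (adjusted p = 4.91e-05) and 0.97 ± 0.17 against WT_PBS (adjusted p = 0.000388), or 1.28 ± 0.14 without WT_PBS 3. Rbm25, an RNA-binding protein with an arginine-rich region that associates with U1 and helps to choose 5′ splice sites, had 493, 418, 397, 436 and 521 CPM in Het_B12 libraries, against 365, 357, 308, 301 and 279 CPM in Het_PBS libraries, and 358, 332, 432, 361 and 390.3 CPM in WT_PBS libraries. The Het_B12 and Het_PBS ranges did not overlap, and WT_PBS 3 alone of its group reached the Het_B12 range. Rbm25 had a log2 fold change of 0.49 ± 0.11 against Het_PBS (adjusted p = 0.0029). Against WT_PBS it had 0.27 ± 0.11 (adjusted p = 0.12), or 0.33 ± 0.11 without WT_PBS 3 (adjusted p = 0.0441).

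The other 5 genes of this role did not pass. The Luc7-like genes are relatives of a yeast U1 component that steadies the pairing of U1 with the 5′ splice site. Luc7l had a log2 fold change of 0.05 ± 0.11 in Het_B12 against Het_PBS, Luc7l2 of 0.30 ± 0.13 and Luc7l3 of 0.21 ± 0.10. Rbm5, known for its part in the splicing of apoptosis genes, had 0.30 ± 0.15, and Rbm39, a coactivator related to the U2 auxiliary factor, had -0.04 ± 0.10.

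Of 5 scaffold and coactivator proteins with long arginine- and serine-rich stretches, 4 were called higher, against 3.47% of all genes. The SR-like regulators had 3 of 5. Srrm2, a large protein at the core of nuclear speckles, had 799, 690.1, 650.2, 741 and 683 CPM in Het_B12 libraries, against 389, 444, 425, 407 and 427 CPM in Het_PBS libraries, and 407, 374, 680.2, 503 and 444 CPM in WT_PBS libraries. The lowest Het_B12 library was well above the highest Het_PBS library, and WT_PBS 3 alone of its group entered the Het_B12 range. The log2 fold change was 0.77 ± 0.12 against Het_PBS (adjusted p = 5.28e-05) and 0.57 ± 0.12 against WT_PBS (adjusted p = 0.00185). Srrm2 overlaps Elob on the opposite strand, whose reads were 31.5% of its own; Elob averaged 179 ± 14.9 CPM in Het_B12 libraries and 176 ± 14.9 CPM in Het_PBS libraries (SD, n = 5 each), a log2 fold change of 0.02 ± 0.11.

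Son, which shares the speckle core with Srrm2 and promotes splicing at weak sites, had 585, 566, 548, 489 and 573 CPM in Het_B12 libraries, against 366, 432, 378, 399 and 391 CPM in Het_PBS libraries, and 389.7, 383, 499, 408 and 429 CPM in WT_PBS libraries. Het_B12 and Het_PBS libraries were fully separated, while WT_PBS 3 exceeded the lowest Het_B12 library. For Son the log2 fold change was 0.49 ± 0.10 against Het_PBS (adjusted p = 0.00158) and 0.39 ± 0.10 against WT_PBS (adjusted p = 0.0125). Srrm4, the neuronal activator of microexons, had 56.4, 46.6, 38.4, 41.7 and 45.3 CPM in Het_B12 libraries, against 29.0, 27.5, 23.3, 25.2 and 17.9 CPM in Het_PBS libraries, and 31.6, 31.8, 39.1, 42.1 and 23.0 CPM in WT_PBS libraries. No Het_PBS library reached the lowest Het_B12 library, and the WT_PBS libraries lay between and across the ranges of both. The log2 fold change of Srrm4 was 0.88 ± 0.18 against Het_PBS (adjusted p = 0.00154), and against WT_PBS it did not pass with WT_PBS 3 (0.45 ± 0.17, adjusted p = 0.121) or without it (0.50 ± 0.18, adjusted p = 0.0728).

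Srrm3, the relative of Srrm4 with which it shares microexon targets, averaged 117 ± 11.2 CPM in Het_B12 libraries and 84.8 ± 9.48 CPM in Het_PBS libraries (SD, n = 5 each). Its log2 fold change was 0.47 ± 0.14 (adjusted p = 0.0296), and its call was lost without Het_B12 2, 4 or 5 or Het_PBS 3 or 4, where the value was at least 0.42 and the adjusted p at most 0.0895. The call was also lost with an offset for transcript length and with Het_B12 1 and Het_PBS 5 both left out (adjusted p of at most 0.0662). Srrm1, a coactivator that bridges splicing factors and the exon junction, averaged 403 ± 47.9 CPM in Het_B12 libraries and 333 ± 20.7 CPM in Het_PBS libraries and did not pass (log2 fold change 0.28 ± 0.11, adjusted p = 0.137).

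**Figure D3:**
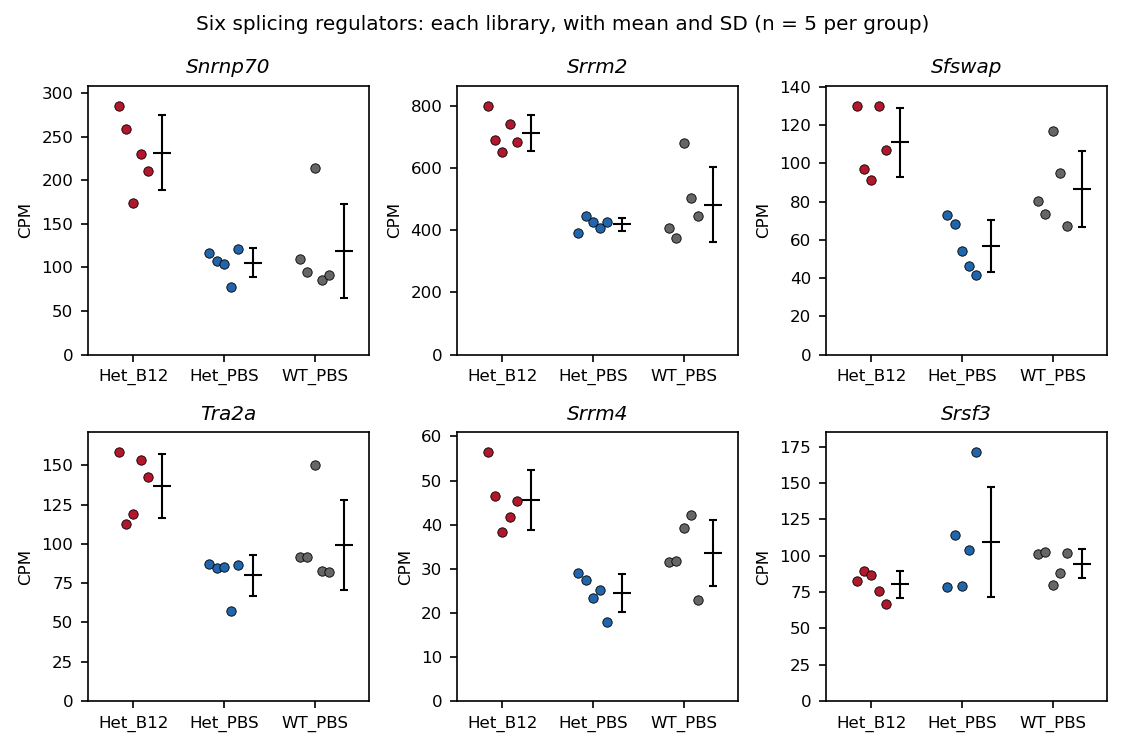
CPM (y axis, from 0) of 6 splicing regulators in each library of Het_B12, Het_PBS and WT_PBS (x axis, left to right); points are libraries in the order of their replicate numbers, and bars give the mean and SD of 5 libraries. For Snrnp70, Srrm2, Sfswap, Tra2a and Srrm4 every Het_B12 point lies above every Het_PBS point; Srsf3 has 1 high Het_PBS point at 171 CPM.

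Of the 5 SR-like regulators, 3 were higher in Het_B12 than in Het_PBS, against 3.47% of all genes. Sfswap is the mammalian relative of the fly gene suppressor of white apricot, which controls the splicing of its own RNA in Drosophila. It had 130.0, 97.1, 91.3, 129.9 and 107 CPM in Het_B12 libraries, against 73.0, 68.1, 54.4, 46.3 and 41.9 CPM in Het_PBS libraries, and 80.1, 73.5, 117, 95.1 and 67.3 CPM in WT_PBS libraries. Het_B12 and Het_PBS did not overlap; WT_PBS libraries reached into both ranges. Its log2 fold change was 0.96 ± 0.16 against Het_PBS (adjusted p = 0.000105), and against WT_PBS it was 0.36 ± 0.15 (adjusted p = 0.156), or 0.49 ± 0.15 without WT_PBS 3 (adjusted p = 0.0326).

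Tra2a, a homologue of fly transformer-2 that binds purine-rich exonic enhancers, had 158, 113, 119, 153 and 142 CPM in Het_B12 libraries, against 87.0, 84.4, 85.4, 57.0 and 86.7 CPM in Het_PBS libraries, and 91.6, 91.4, 150.2, 82.6 and 82.3 CPM in WT_PBS libraries. Het_PBS 4 was far below its group and WT_PBS 3 far above its own; the Het_B12 range did not overlap that of Het_PBS. The log2 fold change was 0.77 ± 0.15 against Het_PBS (adjusted p = 0.000869) and 0.47 ± 0.15 against WT_PBS (adjusted p = 0.046), or 0.66 ± 0.14 without WT_PBS 3 (adjusted p = 0.001). Srsf11, an SR-like protein that acts with SR partners at splice sites, had 385, 320.0, 352, 301 and 373 CPM in Het_B12 libraries, against 279, 256, 213.6, 199.9 and 222 CPM in Het_PBS libraries, and 234, 246, 351, 253 and 265 CPM in WT_PBS libraries. Only WT_PBS 3 of the saline libraries reached the Het_B12 range. Srsf11 had a log2 fold change of 0.56 ± 0.12 against Het_PBS (adjusted p = 0.00184) and did not pass against WT_PBS (0.36 ± 0.12, adjusted p = 0.0504). Tra2b, the close relative of Tra2a, had a log2 fold change of 0.10 ± 0.14 against Het_PBS, and Srsf10, which turns into a general repressor when dephosphorylated, had -0.16 ± 0.17; neither passed. The difference between Tra2a and Tra2b was not tested.

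Of 8 classical SR proteins 1 was called higher, a count near the 3.47% of all genes in a list of this size. This was Srsf6, which binds exonic enhancers. It averaged 39.9 ± 4.82 CPM in Het_B12 libraries and 26.4 ± 3.17 CPM in Het_PBS libraries (SD, n = 5 each), with no overlap and a log2 fold change of 0.59 ± 0.18 (adjusted p = 0.0357). This call was lost in 8 of the 15 fits that left out 1 library (Het_B12 1, 2, 3 or 4, or Het_PBS 1, 2, 4 or 5), where the adjusted p rose to at most 0.0945. It was also lost in 3 of 12 other settings (adjusted p of at most 0.0976). These were an offset for transcript length, thinned libraries, and Het_B12 1 and Het_PBS 5 both left out. Srsf5 (0.46 ± 0.15, adjusted p = 0.0646), Srsf2 (0.32 ± 0.15), Srsf1 (0.17 ± 0.16), Srsf7 (0.11 ± 0.16), Srsf9 (0.00 ± 0.15) and Srsf4 (-0.07 ± 0.26) did not pass. Srsf1 is the founding member of the family. Near Srsf2 the opposite-strand genes Mettl23 and Mfsd11 had 13.6% and 25.1% as many reads. Srsf3, the smallest SR protein and an adaptor for RNA export, had the lowest fold change of the set, -0.44 ± 0.15 (adjusted p = 0.0781). It had 82.7, 89.6, 86.9, 75.5 and 66.6 CPM in Het_B12 libraries, against 78.1, 114, 79.4, 104 and 171 CPM in Het_PBS libraries, and 101, 102, 79.5, 88.4 and 102 CPM in WT_PBS libraries. Het_PBS 5 was the highest library, and the groups overlapped. Srsf3 was called lower without Het_PBS 1 or 3, with no filter on low counts and with libraries thinned to the smallest total (values of -0.53 to -0.44, adjusted p of 0.033 to 0.0416).

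Kinases of the SR proteins were called higher in Het_B12 than in Het_PBS in 2 of 5 cases, against 3.47% of all genes. Prpf4b, a kinase of the U4/U6.U5 tri-snRNP, had 263, 198, 237.3, 232 and 269 CPM in Het_B12 libraries, against 173, 165, 169, 197 and 164 CPM in Het_PBS libraries, and 199.97, 171, 261, 186 and 181 CPM in WT_PBS libraries. Het_B12 2 lay just above Het_PBS 4, the highest of its group. WT_PBS 3 lay well within the Het_B12 range, and the other WT_PBS libraries reached at most 199.97 CPM, just above Het_B12 2. Prpf4b had a log2 fold change of 0.47 ± 0.12 against Het_PBS (adjusted p = 0.00988), and with an offset for transcript length it did not pass (0.34 ± 0.11, adjusted p = 0.0633). With Het_B12 1 and Het_PBS 5 both left out it did not pass either (adjusted p of at most 0.0654). Against WT_PBS it had 0.26 ± 0.12 (adjusted p = 0.174), or 0.38 ± 0.11 without WT_PBS 3 (adjusted p = 0.0254). Clk1, a dual-specificity kinase that phosphorylates arginine- and serine-rich tails and releases SR proteins from speckles, averaged 71.8 ± 11.9 CPM in Het_B12 libraries, 51.5 ± 9.40 CPM in Het_PBS libraries and 69.3 ± 10.1 CPM in WT_PBS libraries (SD, n = 5 each). The groups Het_B12 and Het_PBS overlapped, and the log2 fold change was 0.47 ± 0.15 (adjusted p = 0.0463). Clk1 lost this call in 9 of the 15 fits without 1 library (Het_B12 1, 4 or 5, Het_PBS 1, 3, 4 or 5, or WT_PBS 1 or 5), with an adjusted p of at most 0.134. It also lost the call in 8 of 12 other settings (values of at least 0.31, adjusted p of at most 0.28). Its relatives Clk2 (0.08 ± 0.23), Clk3 (0.24 ± 0.18) and Clk4 (0.35 ± 0.19) did not pass. The Clk3 counts are uncertain, since Edc3 on the opposite strand had 81.0% as many reads and no source used here gives the strand setting.

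DEAD-box helicases Ddx5 and Ddx17 are close paralogues that unwind RNA and act in splicing and transcription. Ddx17 had 188, 170.2, 145, 157 and 117 CPM in Het_B12 libraries, against 108, 87.6, 118, 96.6 and 111 CPM in Het_PBS libraries, and 104, 101, 162, 88.8 and 103 CPM in WT_PBS libraries. Het_B12 5 fell just below Het_PBS 3, so the groups overlapped, and WT_PBS 3 was the only WT_PBS library within the Het_B12 range. Its log2 fold change was 0.58 ± 0.14 against Het_PBS (adjusted p = 0.00774) and 0.48 ± 0.14 against WT_PBS (adjusted p = 0.0283). Ddx5 averaged 266 ± 23.9 CPM in Het_B12 libraries and 247 ± 24.0 CPM in Het_PBS libraries and did not pass (log2 fold change 0.11 ± 0.11).

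Of the 6 tissue-specific regulators 2 were called higher in Het_B12 than in Het_PBS, against 3.47% of all genes. Both were Rbfox genes, whose proteins bind a UGCAUG element beside neuronal and muscle exons. Rbfox1 had 469.6, 511, 519, 509 and 471 CPM in Het_B12 libraries, against 404, 388, 352, 429 and 387 CPM in Het_PBS libraries, and 373, 385, 382, 423 and 376 CPM in WT_PBS libraries. Every Het_B12 library lay above every library of both saline groups, WT_PBS 3 included. The log2 fold change was 0.34 ± 0.10 against Het_PBS (adjusted p = 0.0223) and 0.36 ± 0.10 against WT_PBS (adjusted p = 0.0175). The call against Het_PBS was lost without Het_B12 3 or 4 or Het_PBS 3 (values of at least 0.30, adjusted p of at most 0.0705), and that against WT_PBS without WT_PBS 1 (adjusted p = 0.0547). Rbfox1 also lost its call against Het_PBS in 3 other settings (values of at least 0.275, adjusted p of at most 0.0829). These were no filter on low counts, thinned libraries, and Het_B12 1 and Het_PBS 5 both left out. With thinned libraries it lost the call against WT_PBS too (adjusted p = 0.0646). Rbfox3, which encodes the neuronal nuclear antigen NeuN, had 675, 613, 601, 756 and 736 CPM in Het_B12 libraries, against 552, 572, 550.1, 511 and 459 CPM in Het_PBS libraries, and 543, 538, 593, 656 and 493 CPM in WT_PBS libraries. The Het_B12 range lay above that of Het_PBS and overlapped that of WT_PBS. Its log2 fold change was 0.35 ± 0.10 against Het_PBS (adjusted p = 0.0279), a call lost without Het_B12 1, 4 or 5 or Het_PBS 4 or 5 (values of at least 0.31, adjusted p of at most 0.0907). Rbfox3 also lost this call in 3 other settings (values of at least 0.298, adjusted p of at most 0.13). These were thinned libraries, and Het_PBS 5 left out together with WT_PBS 3 or with Het_B12 1.

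Rbfox2 (0.14 ± 0.13), Nova1 (0.23 ± 0.14) and Nova2 (0.32 ± 0.13, adjusted p = 0.135) did not pass against Het_PBS, although no Het_PBS library reached the Het_B12 range for Nova2; the Nova proteins regulate exons of synaptic genes. Ptbp2, the neuronal polypyrimidine-tract-binding repressor whose level falls as neurons mature, had 71.8, 67.7, 92.7, 85.8 and 91.0 CPM in Het_B12 libraries, against 92.2, 105, 86.3, 90.03 and 89.7 CPM in Het_PBS libraries, and 104, 108, 112, 102 and 104 CPM in WT_PBS libraries. All Het_B12 libraries lay below all WT_PBS libraries, and the log2 fold change of -0.37 ± 0.12 did not pass (adjusted p = 0.055). It was called lower in 5 other settings, among them DESeq2 and limma-voom (values of -0.40 to -0.34, adjusted p of 0.0248 to 0.0472).

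Against WT_PBS, 6 members were higher in Het_B12 (Snrnp70, Srrm2, Son, Rbfox1, Ddx17 and Tra2a) and 0 were lower, with 7.33% of all genes called, 3.22% higher and 4.11% lower. The comparison shares its Het_B12 libraries with the comparison against Het_PBS. The median log2 fold change of the members was 0.16, against 0.01 for all genes, and 29 were above 0, against 50.8% of all genes. Het_B12 lay wholly above WT_PBS for 1 member (Rbfox1; 2.44% of all genes) and wholly below for 1 (Ptbp2; 2.94% of all genes). Without WT_PBS 3, 13 members were called higher and 0 lower, with 5.12% of genes called higher and 5.56% lower. Those 13 were Srsf2, Srsf5, Srsf6, Srsf11, Tra2a, Sfswap, Prpf4b, Srrm2, Son, Snrnp70, Rbm25, Ddx17 and Rbfox1, and the median became 0.24. Without WT_PBS 3 the log2 fold change was 0.72 ± 0.10 for Srrm2, 0.65 ± 0.13 for Ddx17, 0.47 ± 0.11 for Srsf11, 0.45 ± 0.10 for Son and 0.35 ± 0.10 for Rbfox1. For Ptbp2 it was -0.35 ± 0.13 and did not pass (adjusted p = 0.0698). The ranges were then separate, with Het_B12 higher, for 9 members, as they were for 5.47% of all genes, and with Het_B12 lower for 1, Ptbp2, as for 5.97% of all genes. Without WT_PBS 1 the count was 3, and Srrm2, Son and Snrnp70 were called in every one of the 15 fits that left out 1 library. Tra2a lost its call against WT_PBS in 10 of these fits, without Het_B12 1, 4 or 5, Het_PBS 1, 2 or 3, or WT_PBS 1, 2, 4 or 5 (adjusted p of at most 0.148). Ddx17 lost its call in 6, without Het_B12 1 or 2 or WT_PBS 1, 2, 4 or 5 (adjusted p of at most 0.102). Of the 12 other settings, Tra2a lost its call against WT_PBS in 4 (adjusted p of at most 0.117). Ddx17 lost its call in 1 of them, with Het_B12 1 and Het_PBS 5 both left out (adjusted p = 0.091).

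Between saline-treated heterozygotes and wild types, 0 of the 38 genes passed, and 0% of all genes did; DESeq2 and limma-voom also called 0 genes. At an unadjusted p under 0.05, 6 of the 38 members stood (Sfswap, Clk1, Nova1, Srrm4, Rbm5 and Srrm3), as did 879 of all genes tested. Log2 fold changes were above 0 for 7 of the 38, against 48.9% of all genes, with a median of -0.15, against -0.01 for all genes. Sfswap had the lowest value, -0.60 ± 0.16 (adjusted p = 0.442), with a mean of 56.7 ± 13.5 CPM in Het_PBS libraries and 86.5 ± 19.9 CPM in WT_PBS libraries (SD, n = 5 each). Clk1 (-0.41 ± 0.15, adjusted p = 0.526) and Luc7l3 (-0.19 ± 0.10, adjusted p = 0.697) lay lower in every Het_PBS library than in any WT_PBS library, a pattern that 0.444% of all genes showed. Without WT_PBS 3 the members' median was -0.05, 11 lay above 0, and Sfswap had -0.46 ± 0.16 (adjusted p = 0.509), Clk1 -0.31 ± 0.15 and Luc7l3 -0.12 ± 0.10. The 38 genes summed to 6789 to 7919 CPM in Het_B12, 5501 to 5975 CPM in Het_PBS and 5869 to 7398 CPM in WT_PBS, with WT_PBS 3 at the top of its group.

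Other genes of the splicing machinery did not all move with these regulators. The 10 lists of further splicing and RNA-processing genes were drawn up from textbook knowledge, with earlier results of these data known. Of their 178 genes 175 were tested, and 13 were higher and 17 lower in Het_B12 than in Het_PBS. Over all genes 3.47% were higher and 3.79% lower. The median log2 fold change of the listed genes was 0.07. The same shares apply to each list, and counts of 0 or 1 are near them in lists of this size. Among U1 and Sm proteins 2 of 21 were higher and 5 lower, with a median of -0.10. Tia1, which helps U1 bind weak sites, was higher (1.01 ± 0.17, adjusted p = 0.000173), as was Prpf39, a U1 partner (0.81 ± 0.19, adjusted p = 0.00493). The Sm ring protein Snrpd3 was lower (-0.54 ± 0.12, adjusted p = 0.00465). In the U2 list 1 of 18 was higher, Sf3b1 (0.46 ± 0.13, adjusted p = 0.0264), which binds the branch site, and 3 were lower, among them Snrpb2 (-0.56 ± 0.13, adjusted p = 0.004) and Sf3b6 (-0.64 ± 0.19, adjusted p = 0.0306). Of the 17 Prp19-complex and catalytic-step genes, 2 were lower, Syf2 (-0.67 ± 0.15) and Plrg1 (-0.63 ± 0.15), and of 9 exon junction genes, 2 were lower, Magoh (-0.60 ± 0.18) and Rbm8a (-0.40 ± 0.12), the partners that clamp the complex to RNA. With edgeR 0 of 18 tri-snRNP genes and 0 of 3 other SR protein kinases passed. Of these, 3 and 0 had an unadjusted p under 0.05, against 2540 of the 11718 genes tested.

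Speckle and arginine- and serine-rich proteins outside the set had 6 of 26 higher and 1 lower in Het_B12 than in Het_PBS, with a median of 0.18. Pnisr, a speckle-associated protein, averaged 468 ± 109 CPM in Het_B12 libraries and 244 ± 27.6 CPM in Het_PBS libraries (SD, n = 5 each), a log2 fold change of 0.94 ± 0.16 (adjusted p = 0.00017). Nktr, a cyclophilin with a long arginine- and serine-rich tail, had 0.88 ± 0.15 (adjusted p = 0.000224), and Rbm26 had 0.68 ± 0.13 (adjusted p = 0.00128). Among 24 other neuronal and tissue regulators 3 were higher and 2 lower: Elavl3 (0.44 ± 0.10) and Celf5 (0.52 ± 0.12) were higher, while Elavl2 (-0.46 ± 0.11), like Elavl3 a neuronal Hu protein, was lower. Of 24 hnRNP genes 1 was lower, a share near the 3.79% over all genes. It was Hnrnpc (-0.38 ± 0.12, adjusted p = 0.0488), which binds uridine runs in nascent RNA. Of 15 cleavage and polyadenylation genes Pabpn1, the nuclear poly(A)-binding protein, was higher (1.15 ± 0.25, adjusted p = 0.00262) and Nudt21, a cleavage factor that steers the choice of poly(A) site, was lower (-0.67 ± 0.21, adjusted p = 0.0382). Against WT_PBS these 10 lists, with 175 genes tested, held 10 higher and 11 lower genes in Het_B12, against 3.22% and 4.11% of all genes. Without WT_PBS 3 they held 17 higher and 13 lower genes, against 5.12% and 5.56% of all genes. Between Het_PBS and WT_PBS 0 passed with edgeR, DESeq2 or limma-voom. In edgeR 17 had an unadjusted p under 0.05, against 879 of the 11718 genes tested.

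**Figure D4:**
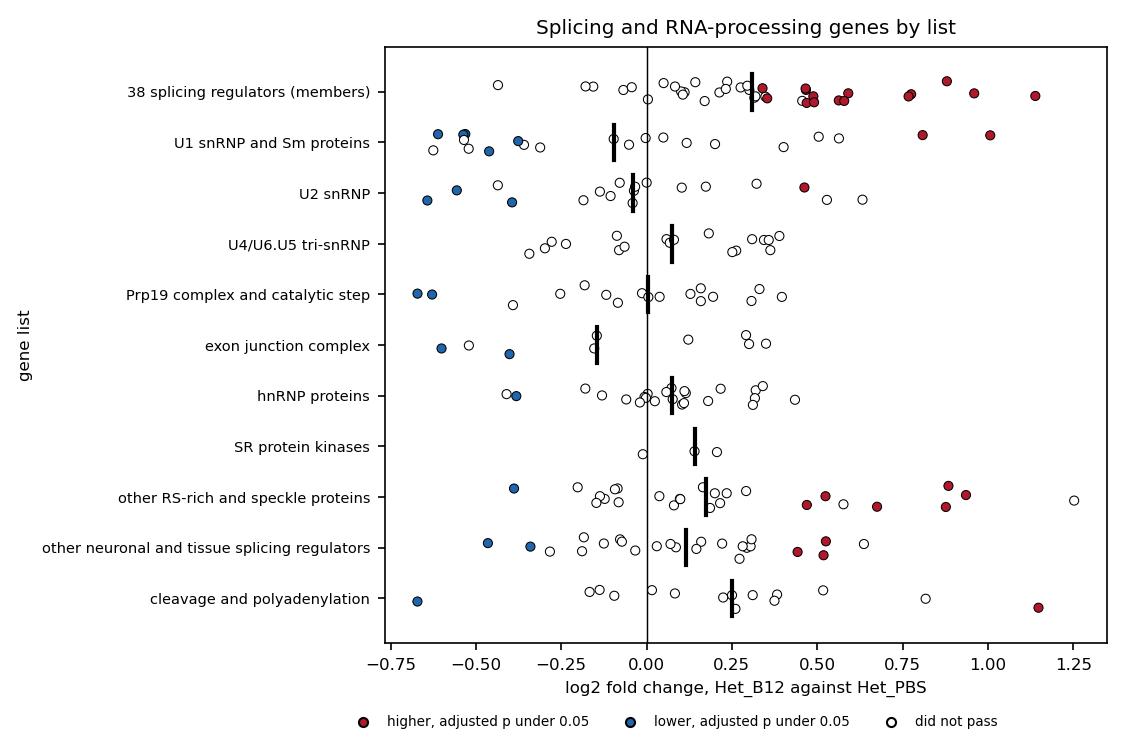
Log2 fold change of Het_B12 against Het_PBS (x axis) for each gene of the set and of 10 further lists (rows); black bars are medians and coloured points passed at an adjusted p under 0.05. The set of 38 has the highest median of these rows, 0.31, while the U1 and Sm list has a median of -0.10. The set and the lists were chosen with earlier results of these data known.

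Other features of the libraries moved alongside the set. The 6 nuclear-retained long non-coding RNAs (Malat1, Meg3, Neat1, Miat, Kcnq1ot1 and Snhg11) were all higher in Het_B12 than in Het_PBS and WT_PBS, against 3.47% and 3.22% of all genes. Their sum was 16611 to 27560 CPM in Het_B12 libraries, 8253 to 10431 CPM in Het_PBS libraries and 8554 to 25211 CPM in WT_PBS libraries, where WT_PBS 3 was again the highest. Gm42418 took 3.31% to 6.28% of counts in Het_B12, 6.47% to 10.3% in Het_PBS and 10.6% to 14.9% in WT_PBS libraries. Cytosolic ribosomal protein genes took 2.08% to 2.26% of counts in Het_B12, 2.62% to 3.44% in Het_PBS and 2.19% to 2.89% in WT_PBS libraries. WT_PBS 3 held the lowest share of its group, and the others held at least 2.32%. None of 8 neuron markers passed. In a list of this size that is near the 7.26% of all genes called in Het_B12 against Het_PBS. The neuron markers summed to 5712 to 6257 CPM in Het_B12, 6020 to 6568 CPM in Het_PBS and 6166 to 7031 CPM in WT_PBS libraries.

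Many glial and vascular markers differed between Het_B12 and Het_PBS, where 3.47% of all genes were higher and 3.79% lower. Counts of 0 or 1 are near these shares in lists of this size. Of 7 astrocyte markers 6 were lower (2072 to 2443 CPM in Het_B12, 3313 to 3794 CPM in Het_PBS and 2893 to 4155 CPM in WT_PBS libraries). Of 8 microglia markers 5 were lower (339 to 421 CPM in Het_B12, 528 to 724 CPM in Het_PBS and 424 to 696 CPM in WT_PBS libraries). WT_PBS 3 was the lowest of its group for both of these lists. The other WT_PBS libraries lay at 3390 CPM or above for astrocyte markers and at 586 CPM or above for microglia markers. Of 6 endothelial markers 5 were higher (158 to 218 CPM in Het_B12, 68.6 to 97.5 CPM in Het_PBS and 66.0 to 92.5 CPM in WT_PBS libraries), and all 5 red blood cell markers were lower (499 to 979.6 CPM in Het_B12, 778 to 4991 CPM in Het_PBS and 486 to 1297 CPM in WT_PBS libraries). Oligodendrocyte markers had 1 of 6 lower (4371 to 6165 CPM in Het_B12, 4572 to 7971 CPM in Het_PBS and 3623 to 7970.1 CPM in WT_PBS libraries), and choroid plexus markers had 0 of 5 called (900.2 to 1508 CPM in Het_B12, 1229 to 1818 CPM in Het_PBS and 745 to 1409 CPM in WT_PBS libraries). WT_PBS 3 was also the lowest of its group for the red blood cell and oligodendrocyte markers. The part of these features in the members' differences was not tested.

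**Figure D5:**
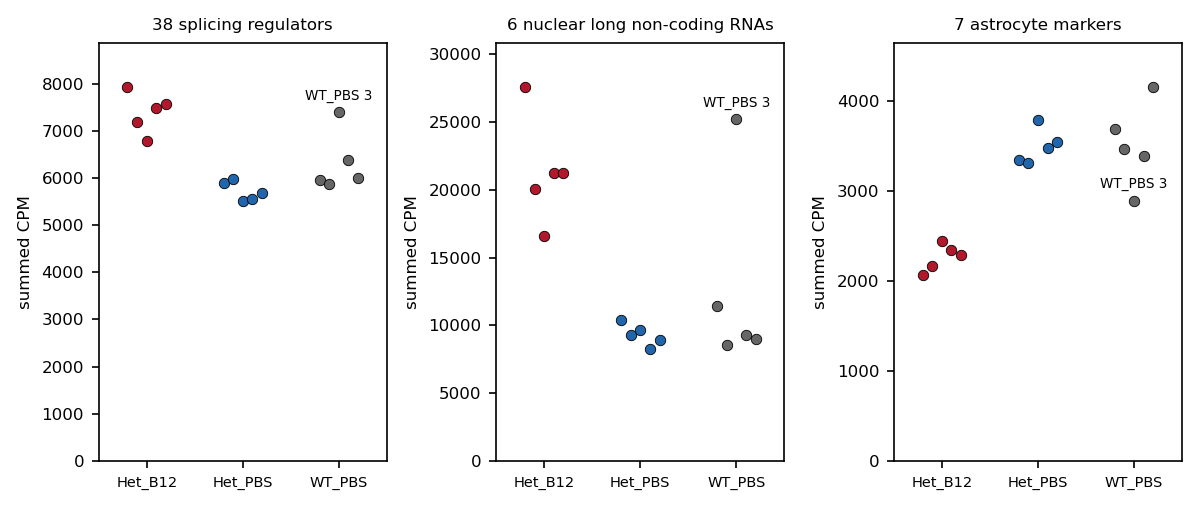
Summed CPM per library (y axes, from 0) of the 38 splicing regulators, of 6 nuclear long non-coding RNAs and of 7 astrocyte markers in Het_B12, Het_PBS and WT_PBS (x axis, left to right). WT_PBS 3 lies within the Het_B12 range for the regulators and for the non-coding RNAs, and above it for the astrocyte markers, where Het_B12 libraries reach at most 2443 CPM.

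Transcript length also moved with the comparison. The median longest transcript was 4079.5 bases over the 38 members and 3604 bases over all genes tested. With all genes split by transcript length into 5 groups of 2343, from short to long, the median log2 fold change of Het_B12 against Het_PBS was -0.15, -0.04, 0.04, 0.05 and 0.12, and for the 2, 5, 14, 9 and 8 members in those groups it was 0.16, 0.11, 0.29, 0.30 and 0.39. With an offset for transcript length 11 members were called, all of them higher, while 2.38% of all genes were called higher and 3.19% lower. Within groups, the median SD of a member was 12.2% of the mean in Het_B12, 13.0% in Het_PBS and 17.6% in WT_PBS libraries.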

How the data were processed

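The 15 libraries came as 1 table of read counts deposited by the authors, by gene and not normalized. STAR, HTSeq and edgeR and the build mm10 are named in the submitters' processing notes; no source used here gives versions, annotation or strand setting. Libraries were made by QuantSeq, per the labels' protocols. The labels call the tissue both brain hemisphere and whole brain, and name both Qiazol and RNeasy isolation without assigning them to libraries. Groups and replicate numbers came from the sample titles. The labels give each library a number, taken here as the animal's, distinct within each group; 1 number, 210, recurs across groups.

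Counts were analysed in R 4.3.3 with edgeR 4.0.16: filterByExpr kept 11718 genes, TMM factors scaled the libraries, and a quasi-likelihood model with 1 mean per group was fitted to all 15 libraries (12 residual degrees of freedom). Contrasts were tested with glmQLFTest, and p-values were adjusted by Benjamini-Hochberg over all genes tested; a gene was called at an adjusted p under 0.05. Standard errors are the log2 fold change divided by the square root of the F statistic. Of 30386 identifiers, 30348 matched GENCODE M21, which gave coordinates, overlaps and transcript lengths. The script was tested on simulated data. A count of 3 reads corresponds to 1.09 to 1.78 CPM; such floors cover counting error only.

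The members, lists and tests were chosen with earlier results of these data known. All 38 members are accounted for. Values in every library are given for the 12 with the smallest unadjusted p in Het_B12 against Het_PBS, and for Srsf3 and Ptbp2, which were added after their values were seen. At most 3 called genes are named per further list. Alternatives were DESeq2 1.42.0 size factors and Wald tests, limma 3.58.1 voom, other filters and scaling, 2-group fits, a replicate block, a transcript length offset, thinning to the smallest total and leaving out libraries.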

Additional observations from a re-analysis of the deposited data

Results flagged for a closer look

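Each of the 38 genes was examined in each of the 3 groups for a library far from the other 4. Of 114 such groups 12 stood out; chance flags about 1 in 20 groups. In WT_PBS 3, 5 genes were far above the other WT_PBS libraries: Snrnp70 at 213.9 CPM (others 85.5 to 109.6), Tra2a at 150.2 CPM (others 82.3 to 91.6), Ddx17 at 162 CPM (others 88.8 to 104), Srsf11 at 351 CPM (others 234 to 265) and Clk1 at 87.1 CPM (others 62.5 to 66.1). In WT_PBS 4, Rbfox1 was high at 423 CPM (others 373 to 385) and Tra2b was low at 49.2 CPM (others 68.2 to 72.7). In Het_PBS 4, Tra2a was low at 57.0 CPM (others 84.4 to 87.0) and Prpf4b was high at 197 CPM (others 164 to 173). In Het_PBS 3, Srsf6 was high at 31.9 CPM (others 24.3 to 26.2), Nova1 was high at 103 CPM (others 70.0 to 78.1) and Rbfox2 was low at 113 CPM (others 148 to 154). No gene stood out in this way in the Het_B12 group.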

How the results depend on the processing

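The count of members called in Het_B12 against Het_PBS, 15, ranged from 10 (without Het_B12 4) to 16 over the 15 fits that left out 1 library; it was 9 with Het_B12 1 and Het_PBS 5 both left out, a setting added after seeing the data, and 11 to 16 in the others. These totals include Srsf3, called lower, without Het_PBS 1 (13 higher), without Het_PBS 3 (12 higher), with no filter on low counts (14 higher) and with thinned libraries (11 higher). For Het_B12 against WT_PBS the count, 6, ranged from 3 (without WT_PBS 1) to 13 (without WT_PBS 3) when 1 library was left out, and was 13 with WT_PBS 3 and Het_PBS 5 both left out; Ptbp2 was called lower in 5 settings, each counted in its total. For Het_PBS against WT_PBS it was 0 except with no filter on low counts, where 1 member, Sfswap, was called and 40 of all genes. No called member changed sign in any setting run. Snrnp70, Srrm2, Sfswap, Tra2a, Srrm4, Son, Srsf11, Rbm25 and Ddx17, 9 members, kept their call against Het_PBS throughout. The cause of these changes was not tested.

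Over all genes, 851 were called in Het_B12 against Het_PBS, with 549 to 1050 when 1 library was left out and 437 without Het_B12 1 and Het_PBS 5 (183 higher, 254 lower). Het_B12 against WT_PBS gave 859, with 449 to 1268 when 1 library was left out and 1390 without WT_PBS 3 and Het_PBS 5. Het_PBS against WT_PBS gave 0, with 0 to 14 when 1 library was left out, 1 without WT_PBS 3 and Het_PBS 5, and 2 without Het_B12 1 and Het_PBS 5. With the replicate number as a block, 14, 6 and 0 members were called in Het_B12 against Het_PBS, Het_B12 against WT_PBS and Het_PBS against WT_PBS; the numbers do not pair the samples, since same-numbered libraries correlated at -0.0933 to 0.106 over 15 pairs, and 1 library correlated best with its own number. The lowest member had 17 reads in a library, which limits the precision of its fold change.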
